A study of Mus musculus with 9 samples.

Results

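The 10 genes described here were chosen by name as effectors and sensors of type 2 immunity, with earlier results of these data known. All 10 were found by NCBI gene number among the 18220 rows of the expression table. They are the alarmin gene Il33 and its receptor gene Il1rl1, the cytokine receptor chains Il4ra and Il13ra1, the transcription factor gene Stat6, the goblet cell effector Retnlb, the receptor tyrosine kinase gene Kit and the mast cell protease genes Mcpt1, Mcpt2 and Cpa3. RNA was sequenced from the intestinal stem cell niche, the crypt base with its stem cells and their neighbours, cut by laser microdissection from mouse ileum. The groups were AKR mice aged 25 weeks and SAMP/YitFc (SAMP) mice aged 5 weeks, neither with inflammation, and diseased SAMP mice of 25 weeks with severe Crohn's disease-like ileitis. All mice were wild type, and each group had 3 biological replicates. Strain, age and ileitis differ together in part: SAMP 25 wk differs from AKR 25 wk in strain and disease, and from SAMP 5 wk in age and disease. SAMP 5 wk differs from AKR 25 wk in both strain and age. Values are FPKM, fragments scaled to transcript length and library size, so levels of different genes are compared per length.

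Type 2 immunity is the response to worms and allergens, and in the gut it reshapes the epithelium. Damaged or stressed cells release IL-33, which acts through ST2, the product of Il1rl1, on group 2 innate lymphoid cells, Th2 cells and mast cells, and these secrete IL-13 and IL-4. Both cytokines bind a receptor built from the products of Il4ra and Il13ra1, which activates STAT6, and goblet cells respond by secreting resistin-like molecule beta, the product of Retnlb. Mast cells carry KIT, the receptor of stem cell factor, but so do interstitial cells of Cajal and, in mouse colon, a secretory cell of the crypt base that also makes REG4.

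The promoters of Il33 and Kit are shown because both genes were higher in the inflamed niche and because IL-4 and IL-13 act on genes through STAT6. The STAT6 motif TTCNNNNGAA, where N is any base, and the general STAT motif TTCNNNGAA were searched on both strands in windows of 250 bases before to 50 after each start in RefSeq's GRCm38.p6 annotation. A window was given for 8 of the 10 genes, 11 windows in all, and Retnlb and Mcpt2 had none. One STAT6 motif was found, in the first window of Il33, 36 bases before the start. Of all 32851 windows of the table, 7.0% held the STAT6 motif and 8.3% the general one. A single match among 11 windows is thus only a description of these letters, and STAT6 binding was not tested. The 250 bases before the start, 5′ to 3′, are given for both Il33 windows (chr19:29924863-29925112 and chr19:29945540-29945789, plus strand) and for the first Kit window (chr5:75574737-75574986, plus strand), with the motif in capitals.
Il33 first window: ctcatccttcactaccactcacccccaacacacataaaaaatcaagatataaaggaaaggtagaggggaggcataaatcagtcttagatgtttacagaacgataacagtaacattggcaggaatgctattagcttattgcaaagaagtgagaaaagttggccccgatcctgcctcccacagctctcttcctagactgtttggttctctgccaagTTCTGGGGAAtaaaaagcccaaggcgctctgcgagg
Il33 second window: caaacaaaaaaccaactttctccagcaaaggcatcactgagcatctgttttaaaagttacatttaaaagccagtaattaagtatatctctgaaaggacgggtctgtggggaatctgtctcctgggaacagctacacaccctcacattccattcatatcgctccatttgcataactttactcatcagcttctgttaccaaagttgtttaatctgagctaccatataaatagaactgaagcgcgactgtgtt
Kit first window: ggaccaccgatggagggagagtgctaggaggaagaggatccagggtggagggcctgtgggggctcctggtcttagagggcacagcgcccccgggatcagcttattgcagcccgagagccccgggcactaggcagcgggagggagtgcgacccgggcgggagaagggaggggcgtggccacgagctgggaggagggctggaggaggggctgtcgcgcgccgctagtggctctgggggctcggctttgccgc

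Retnlb, Il33 and Kit were higher in the inflamed SAMP 25 wk niche than in AKR 25 wk, and Kit and Retnlb also passed against SAMP 5 wk. Retnlb was higher in uninflamed SAMP 5 wk than in AKR 25 wk as well, a comparison in which strain and age both differ. Each of the 3 genes was higher in every SAMP 25 wk library than in all 6 uninflamed libraries, which 3.28% of all rows showed. The receptor chains, Stat6 and Il1rl1 did not pass in any comparison, and the mast cell proteases were too low to be tested. In these bulk libraries fewer cells of a type and less RNA per cell cannot be told apart, and the same holds for more cells and more RNA.

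**Figure D1:**
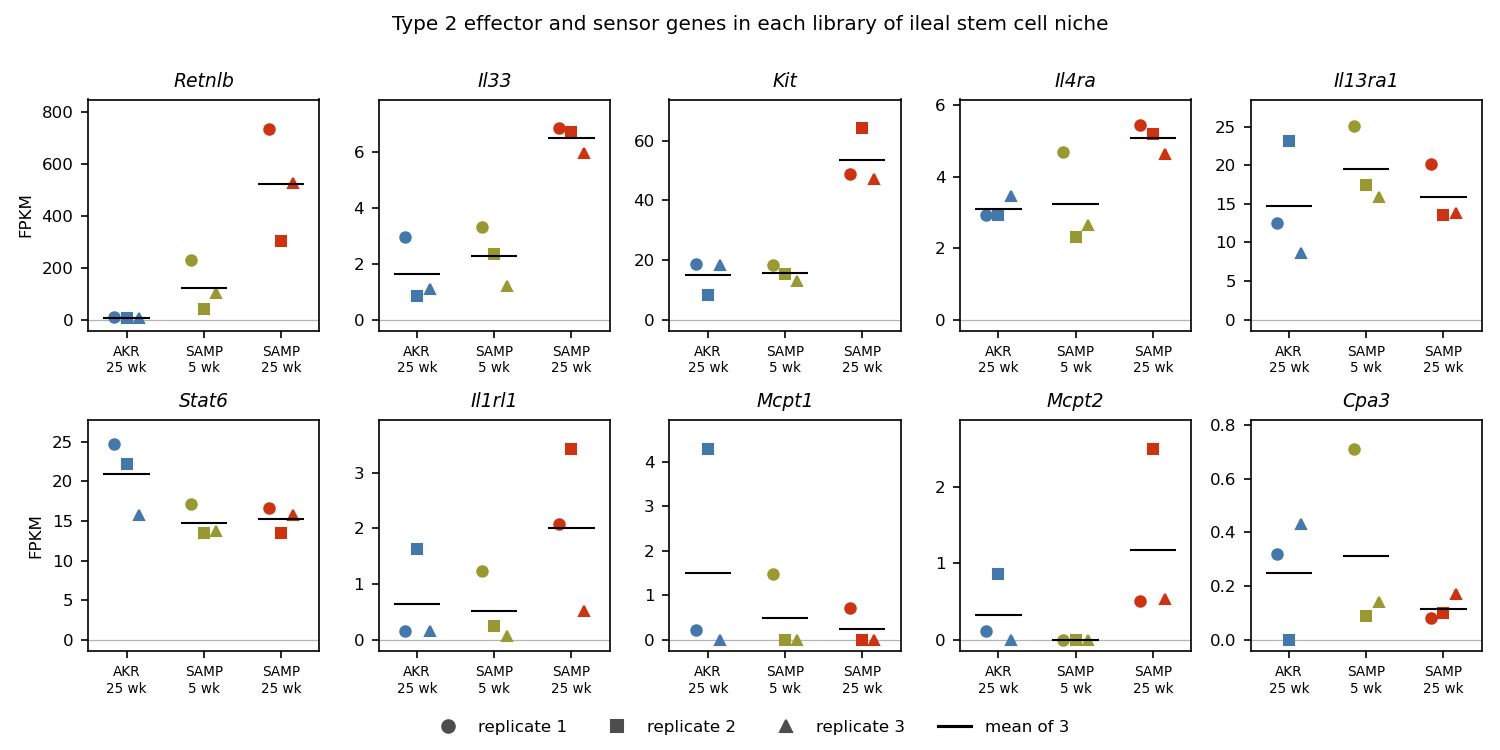
FPKM (linear axes starting near 0, one scale per gene) of the 10 genes in the 9 libraries, with replicates by symbol and a line at the mean of 3. All SAMP 25 wk points of Retnlb, Il33 and Kit lie above the other 6, whereas the mast cell proteases are at 4.28 or lower.

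Expression was tested on log2(FPKM + 1) with limma over 11775 rows with a mean FPKM of at least 1, which 7 of the 10 genes passed, with Benjamini-Hochberg adjusted p under 0.05 as the call. Between SAMP 25 wk and AKR 25 wk 3 of the 7 were higher, against 1.59% of all tested rows, and 0 were lower, against 1.35%. Between SAMP 25 wk and SAMP 5 wk 2 were higher, against 0.909% of rows, and 0 lower, against 0.611%. Between SAMP 5 wk and AKR 25 wk 1 was higher, against 0.289%, and 0 were lower, against 0.263%. The genes were chosen with earlier results of these libraries known, so their excess over these shares is not independent evidence. The median log2 fold change of the 7 was 0.85, 0.94 and 0.10 in these comparisons, beside -0.15, -0.11 and -0.03 over all tested rows. The 0.85 and 0.94 are the values of Il1rl1 itself. Its mean FPKM was 1.05 over all libraries, but 0.65 in AKR 25 wk and 0.51 in SAMP 5 wk. Il1rl1 thus passed the filter only through SAMP 25 wk, so these medians are not independent of that group's level. The first pair of comparisons shares the SAMP 25 wk libraries, and the first and last share the AKR libraries. Leaving out AKR 25 wk replicate 2 and SAMP 25 wk replicate 3, described next, left 2, 1 and 0 genes called higher.

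A pair of libraries stood apart from their groups. AKR 25 wk replicate 2 was rich in villus enterocyte RNA: the summed FPKM of 12 enterocyte genes was 17787 in it, 900 and 554 in the other AKR libraries, and between 188 and 1680 in the SAMP libraries. SAMP 25 wk replicate 3 had an Xist level of 176.8 and a level of 0.14 for the Y-linked gene Eif2s3y, against at most 1.32 and at least 14.5 in the other 8 libraries, and sex is not in the labels. Crypt base markers were present in all 9 libraries, with Lgr5 between 9.62 and 23.4 and Olfm4 between 194.5 and 1039. Library depth, inferred from how far apart neighbouring low FPKM values lie, came to between 6990000 and 10230000 reads. An FPKM below 1 then rests on few reads for a short transcript and on more for a long one.

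**Figure D2:**
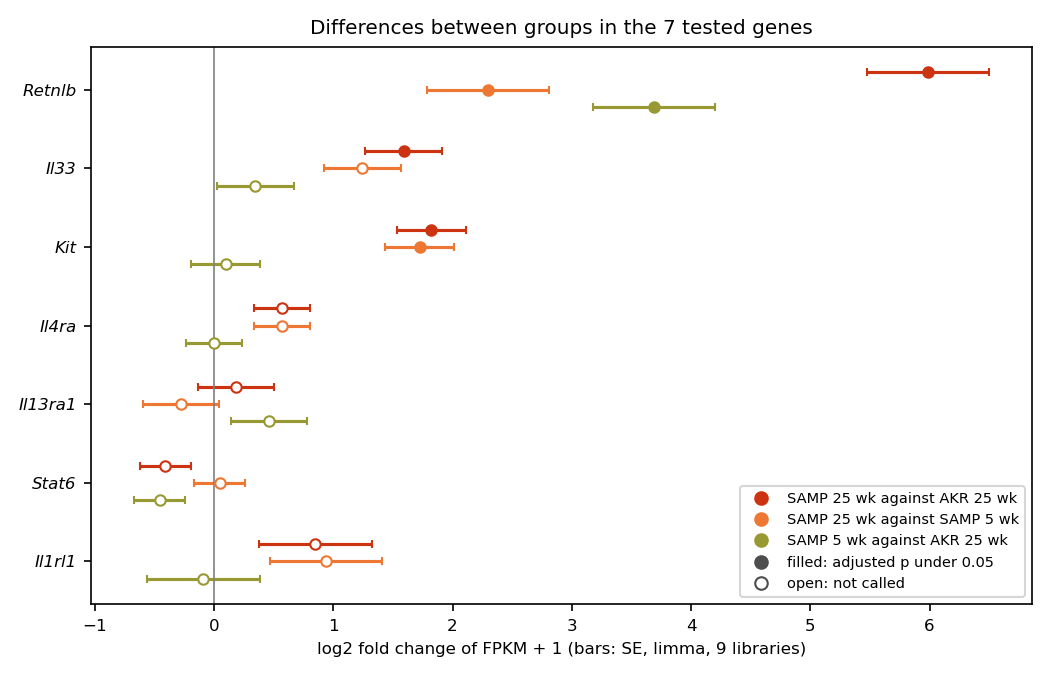
Log2 fold change of FPKM + 1 with its SE for the 7 tested genes in the 3 comparisons, filled where limma's adjusted p was under 0.05. The 6 filled points belong to Retnlb (3), Kit (2) and Il33 (1), and the receptor chains, Stat6 and Il1rl1 are open throughout.

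Retnlb was the gene of the 10 with the widest range. Resistin-like molecule beta is secreted by goblet cells into the mucus and acts against worms and bacteria. The gene lies at chr16:48816856-48818892 (GRCm38). Its FPKM was 8.14, 4.75 and 7.71 in the AKR 25 wk libraries, 228.3, 41.2 and 100.4 in SAMP 5 wk, and 733.5, 302.5 and 525.1 in SAMP 25 wk. The groups did not overlap in any pairing, although SAMP 5 wk replicate 1 came near the lowest SAMP 25 wk library. By rank among the 18220 rows, Retnlb lay between places 5533 and 7623 in AKR and between 262 and 1012 in SAMP 5 wk, and it reached places 78 to 113 in SAMP 25 wk.

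Retnlb rose by 5.99 ± 0.51 (SE) on the log2 scale between AKR 25 wk and SAMP 25 wk, with an adjusted p of 3.6e-05 in limma. Mean FPKM was 6.87 ± 1.85 (SD, n = 3) and 520.4 ± 215.6, a ratio of 75.8. In SAMP 5 wk, without inflammation, the mean was 123.3 ± 95.6, which is 18.0 times that of AKR, with a log2 fold change of 3.69 ± 0.51 and an adjusted p of 0.0049 in limma. From 5 to 25 weeks in SAMP the log2 fold change was 2.30 ± 0.51 with an adjusted p of 0.0498 in limma, so close to the threshold that it was lost under 13 of 20 alternative settings (highest adjusted p 0.15). Among these were leaving out SAMP 5 wk replicate 2 or 3, or any 1 of the SAMP 25 wk libraries. The difference between SAMP 5 wk and AKR had an adjusted p of 0.055 in limma without both libraries that stood apart. Summed FPKM of 14 goblet cell genes, Retnlb not among them, lay between 6690 and 9371 in AKR, between 4932 and 9829 in SAMP 5 wk, and between 15162 and 19447 in SAMP 25 wk. Spink4 alone gave 10631 of 18887, 14335 of 19447 and 8933 of 15162 in SAMP 25 wk replicates 1, 2 and 3. The sum thus says little of the other goblet cell genes. Of the 14, 6 rose and 3 fell between AKR and SAMP 25 wk in limma, and Zg16, a lectin gene of goblet cell mucus, fell by 5.94 ± 0.56 on the log2 scale (adjusted p 7.7e-05). Without both libraries that stood apart, 5 of these 9 calls remained. The sum overlapped between the uninflamed groups, where Retnlb differed, and its part in the rise of Retnlb at 25 weeks was not tested.

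The other resistin genes were low. Retnla, which alternatively activated macrophages and some epithelia make, was listed at 0 in all AKR libraries and in SAMP 5 wk replicates 1 and 2, at 5.55 in SAMP 5 wk replicate 3, and at 1.28, 1.72 and 1.11 in SAMP 25 wk. Retnlg was above 0 in 3 libraries and reached 1.95 in SAMP 25 wk replicate 3. Of the 2 resistin genes tested, Retnlb and Retnla, the latter had an adjusted p of 0.35 in limma between SAMP 25 wk and AKR.

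Il33 encodes a nuclear cytokine that epithelial, endothelial and stromal cells hold in store and release on damage, and the gene lies at chr19:29925113-29960718 (GRCm38). FPKM was 2.96, 0.86 and 1.11 in AKR 25 wk, 3.31, 2.34 and 1.22 in SAMP 5 wk, and 6.88, 6.72 and 5.97 in SAMP 25 wk. The inflamed libraries were close to each other, with a mean of 6.52 ± 0.486 (SD, n = 3), and all lay above the highest uninflamed one, while the uninflamed groups overlapped. Between AKR and SAMP 25 wk Il33 rose by 1.59 ± 0.32 (SE) on the log2 scale, with an adjusted p of 0.020 in limma. This call was lost under 6 of 19 alternatives (highest adjusted p 0.15), among them leaving out AKR 25 wk replicate 2 (0.070) or 3 (0.064) or SAMP 25 wk replicate 2 (0.081) or 3 (0.065). Against SAMP 5 wk the log2 fold change was 1.24 ± 0.32 and the adjusted p in limma 0.086, which passed under 4 of 19 alternatives. Between the uninflamed groups the log2 fold change was 0.35 ± 0.32, with an adjusted p of 0.91 in limma.

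Other genes of the IL-1 family did not share this pattern. Of 6 measured, only Il33 was higher in all SAMP 25 wk libraries than in the other 6. Il1b, the classical inflammatory member, was at 2.21, 0 and 0.28 in AKR, 3.70, 0.66 and 0.31 in SAMP 5 wk and 0.46, 0.95 and 0.19 in SAMP 25 wk. Il18, which enterocytes store, was at 7.63 in the enterocyte-rich AKR library and between 0.28 and 2.99 in the other 8. Fibroblast and endothelial genes, 11 in all, had sums between 74.2 and 191.6 in AKR and between 144.2 and 298.9 in SAMP 5 wk. In SAMP 25 wk the sums lay between 114.6 and 170.7, so the groups overlapped. Dcn, a fibroblast gene, gave 112.42 of the 188.35 in AKR replicate 1, so the sum says little of endothelium. Of the endothelial genes, Pecam1 and Vwf had means of 7.11 and 2.497 in SAMP 25 wk, against at most 5.1 and 1.453 elsewhere. Cdh5 and Kdr went the other way against AKR, at 1.82 and 1.02 against 2.1 and 1.153. None of the 11 was called by limma, and their part in the Il33 result was not tested. Smooth muscle genes, 8 in all, summed to at most 104.3 in the uninflamed libraries and 113.8 to 134.9 in SAMP 25 wk, and their part in the Il33 result was not tested.

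Il1rl1, the gene of the IL-33 receptor ST2, was low and uneven. Its FPKM was 0.16, 1.62 and 0.16 in AKR 25 wk, 1.23, 0.24 and 0.06 in SAMP 5 wk, and 2.07, 3.42 and 0.52 in SAMP 25 wk. SAMP 25 wk replicates 1 and 2 were above all other libraries, but replicate 3 lay among the uninflamed ones. The log2 fold change between SAMP 25 wk and AKR was 0.85 ± 0.47 (SE), with a 95% interval from -0.18 to 1.88 and an adjusted p of 0.42 in limma. Il1rap, the second chain of the receptor, was at 1.43, 0.93 and 1.77 in SAMP 25 wk and between 1.65 and 4.26 in the uninflamed libraries.

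The receptor chains for IL-4 and IL-13 passed in no comparison. Il4ra, the chain shared by both cytokines, was at 2.94, 2.92 and 3.47 in AKR, 4.70, 2.32 and 2.66 in SAMP 5 wk, and 5.45, 5.20 and 4.65 in SAMP 25 wk. All inflamed libraries were above AKR, and SAMP 5 wk replicate 1 overlapped with them. The log2 fold change was 0.57 ± 0.24 (SE) against AKR, with a 95% interval from 0.05 to 1.09, and 0.57 ± 0.24 against SAMP 5 wk, and neither passed in limma (adjusted p 0.27 in both). Of the stretches of 50 bases in Il4ra transcripts, 8.4% also occur in the overlapping gene Gm44876, so a small part of its reads could have been shared.

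Il13ra1, the gene of the chain that pairs with the Il4ra product to bind IL-13, was at 12.5, 23.1 and 8.67 in AKR, 25.1, 17.5 and 15.9 in SAMP 5 wk, and 20.2, 13.6 and 13.8 in SAMP 25 wk. All groups overlapped, and the highest AKR value came from the enterocyte-rich replicate 2. The difference between SAMP 25 wk and AKR was 0.18 on the log2 scale, with a 95% interval from -0.51 to 0.88. Per length, Il13ra1 was higher than Il4ra in each of the 9 libraries.

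Stat6, which carries the signal of both cytokines to the nucleus, was at 24.7, 22.2 and 15.7 in AKR, 17.1, 13.5 and 13.7 in SAMP 5 wk, and 16.6, 13.5 and 15.7 in SAMP 25 wk. The SAMP groups overlapped, and AKR replicates 1 and 2 lay above every SAMP library. Between SAMP 25 wk and AKR the log2 fold change was -0.41 ± 0.22 (SE), with a 95% interval from -0.88 to 0.06 and an adjusted p of 0.39 in limma. Within SAMP it was 0.05, with a 95% interval from -0.42 to 0.52.

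Around these chains, 13 genes of STAT6 and IL-33 receptor signalling were measured, among them the kinase genes Jak1, Jak2, Jak3 and Tyk2 and the adaptor genes Myd88 and Irak4. None of the 12 tested was called in any comparison by limma, with 1 at an unadjusted p under 0.05 between SAMP 25 wk and AKR. Of 10 tested receptor chains, 1 rose between AKR and SAMP 25 wk and 0 fell. It was Il17rb, a chain of the receptor for IL-25 that tuft cells and group 2 innate lymphoid cells carry. Il17rb was at 0.73, 0.51 and 0.30 in AKR, 1.28, 0.60 and 1.56 in SAMP 5 wk and 3.41, 8.50 and 5.44 in SAMP 25 wk, which did not overlap with the other groups. It rose by 2.10 ± 0.32 (SE) with an adjusted p of 0.0034 in limma. Against SAMP 5 wk its adjusted p was 0.029 in limma, which was lost under 8 of 19 alternatives (highest adjusted p 0.14). Of 13 measured tuft cell genes, Il17rb included, 11 were higher in all SAMP 25 wk libraries than in the other 6.

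Unlike Il33 and Kitl, the cytokine genes Il4, Il5, Il13, Il25 and Tslp had too low a mean FPKM to be tested. Il13 was listed at 0 in all 6 uninflamed libraries and at 2.49, 3.0 and 0.83 in SAMP 25 wk, which is about 24.7, 25.7 and 7.9 reads by the depth estimate. It was below the level for testing, and without that filter its adjusted p in limma was 0.018 against AKR and 0.032 against SAMP 5 wk, on a scale where a gene at 0 in a whole group has no fold. Being above 0 in all SAMP 25 wk libraries and at 0 in the other 6 was shared by 27 of 18220 rows, or 0.148%. Among these was Il13ra2, the decoy receptor of IL-13, at 0.31, 0.18 and 0.08 in SAMP 25 wk.

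Il4 was above 0 in 2 of 9 libraries, at 0.22 in AKR replicate 3 and 0.20 in SAMP 25 wk replicate 1. Il5, the growth factor of eosinophils, was at 0.39, 0.27 and 0.98 in SAMP 25 wk and between 0 and 0.29 in the uninflamed libraries, which overlapped. Il25, the tuft cell alarmin, was at 0.11 in SAMP 25 wk replicate 1 and listed at 0 in the other 8. Tslp, a further epithelial alarmin, ranged from 0 to 0.99 with no order between groups.

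**Figure D3:**
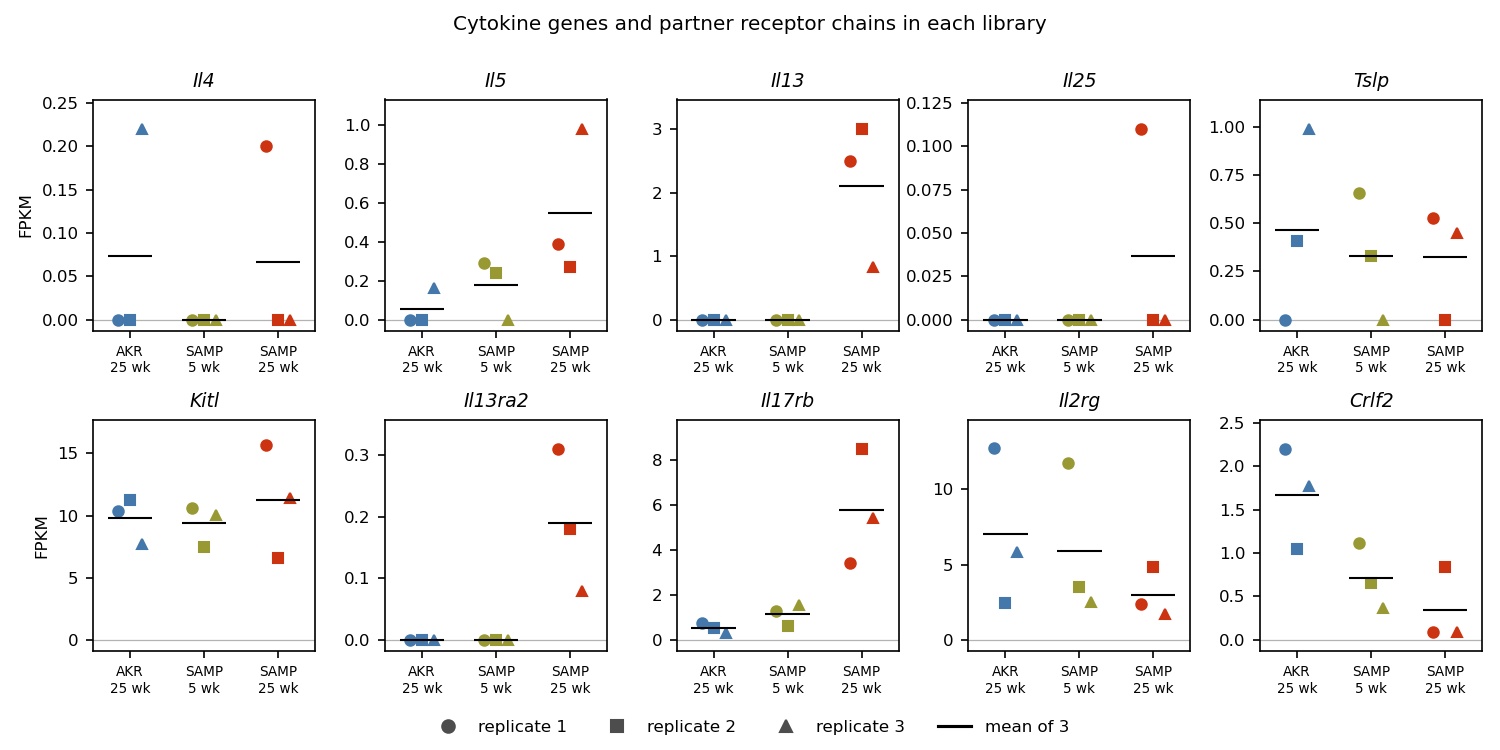
FPKM (linear axes, one scale per gene) of 6 cytokine genes and 4 receptor chains in the 9 libraries, with a line at the mean of 3. Il13 and Il13ra2 are above 0 in the 3 SAMP 25 wk libraries and at 0 in the other 6, and Il17rb reaches 8.50, whereas Il4 and Il25 are near 0 everywhere.

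Group 2 innate lymphoid and Th2 cells, eosinophils and alternatively activated macrophages were represented by few transcripts. Of 15 genes of group 2 innate lymphoid and Th2 cells, 4 were higher in all SAMP 25 wk libraries than in the other 6: Il13, Il17rb, Hpgds and Gata3, the lineage transcription factor. Limma called 1 of the 6 tested against AKR, Il17rb, which is also among the tuft cell genes above. Gata3 was at 0.47, 1.68 and 0.76 in SAMP 25 wk and at most 0.31 elsewhere. Hpgds, a prostaglandin D synthase gene, was at 2.97, 2.28 and 4.31 in SAMP 25 wk and at most 1.44 elsewhere, with an adjusted p of 0.075 against AKR in limma. Of 10 tested general leukocyte genes 0 rose and 1, Itgam, fell against AKR in limma, by 1.22 ± 0.23 with an adjusted p of 0.012, a call lost without both libraries that stood apart. Against SAMP 5 wk Itgam fell by 1.51 ± 0.23 with an adjusted p of 0.0054 in limma, a call kept under all 20 alternatives. Ptprc, the pan-leukocyte gene, had a log2 fold change of -0.016 ± 0.40 and was not called. Summed FPKM of 13 leukocyte genes lay between 104.3 and 135.4 in SAMP 25 wk and between 177.8 and 523.8 in the other 6 libraries. Jchain and Lyz2 gave 218.5 and 227.0 of the 523.8 in AKR replicate 1. Of the 10 tested, 5 had an unadjusted p under 0.05 against AKR in limma, all of them lower in SAMP 25 wk.

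Eosinophil genes, 9 in all, summed to 8.27 to 8.86 in SAMP 25 wk and 0.90 to 1.78 in the other 6 libraries. That sum came mostly from Alox15, the lipoxygenase gene, at 2.06, 1.08 and 6.17, and from Ear1, Ear2 and Ear6, ribonuclease genes of a family with similar copies, of which Ear2 reached 6.06. The defining granule genes did not share it: Prg2 was listed at 0 in all SAMP 25 wk libraries, and Epx was at 0.35, 0 and 0.09. Siglecf was at 2.03, 0.49 and 0.88 in SAMP 25 wk and between 0.23 and 0.54 in the other 6 libraries. Ccr3 was at 0.50, 0 and 0 in SAMP 25 wk and at most 0.04 in the other 6. Both overlapped with the uninflamed libraries, as did Il5ra. Of 10 genes of alternatively activated macrophages, 1 was higher in all SAMP 25 wk libraries: Arg1, at 1.94, 2.15 and 3.30 against at most 1.67, and not called by limma (adjusted p 0.18 against AKR).

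Genes that IL-4 or IL-13 are known to induce in epithelium were set beside the receptors. Of 17 tested, 8 rose and 1 fell between AKR and SAMP 25 wk in limma, 6 rose and 1 fell between SAMP 5 wk and SAMP 25 wk, and 2 rose between AKR and SAMP 5 wk. Their median log2 fold change was 1.68 against AKR, beside -0.15 for all tested rows. This median is the value of Alox15, with a mean FPKM of 0.13 in AKR and 0.06 in SAMP 5 wk. Alox15 thus passed the filter only through SAMP 25 wk. The list was drawn up with earlier results of these libraries known, so its direction is not independent evidence. Without AKR 25 wk replicate 2 and SAMP 25 wk replicate 3, 8 of the 9 calls against AKR remained, all but Muc2. Those that rose against AKR were Retnlb, the gasdermin genes Gsdmc2, Gsdmc3 and Gsdmc4, the antimicrobial ribonuclease gene Ang4, the pentraxin gene Mptx2, the mucus processing gene Clca1 and the mucin gene Muc2. Fcgbp, which encodes a mucus protein, fell by 3.10 ± 0.49 on the log2 scale with an adjusted p of 0.0046 in limma.

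Gsdmc2, of a family of pore-forming proteins with similar copies, was at 6.99, 7.84 and 6.37 in AKR, 172.7, 23.3 and 42.6 in SAMP 5 wk and 1204, 474.7 and 630.4 in SAMP 25 wk. SAMP 5 wk replicate 1 was the highest of its group, as it was for Retnlb. Between AKR and SAMP 5 wk Gsdmc2 did not pass in limma, with a log2 fold change of 2.82 ± 0.57 (SE) and an adjusted p of 0.059. Mptx2, a pentraxin gene of Paneth cells, was the gene that rose beside Retnlb in that comparison: it was at 238.7, 161.0 and 233.9 in AKR, 3470, 2739 and 2467 in SAMP 5 wk, and 4582, 11156 and 4244 in SAMP 25 wk.

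Muc2 and Clca1 were less steady calls against AKR. Muc2 rose by 1.16 ± 0.27 (SE) with an adjusted p of 0.036 in limma, lost under 11 of 20 alternatives. Clca1 rose by 2.77 ± 0.62 with an adjusted p of 0.034 in limma, lost under 7 of 20. Not called were Alox15, with a log2 fold change of 1.68 ± 0.41, Mptx1 at 1.40 ± 0.35 and Itln1 at 1.27 ± 0.34 against AKR, although each was higher in all SAMP 25 wk libraries than in the other 6. The small proline-rich gene Sprr2a1 was at 169.1 in the enterocyte-rich AKR library and at 1.84 and 1.01 in the others of that group, and Sprr2a1 and Sprr2a2 are near-identical copies whose reads could have been split.

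**Figure D4:**
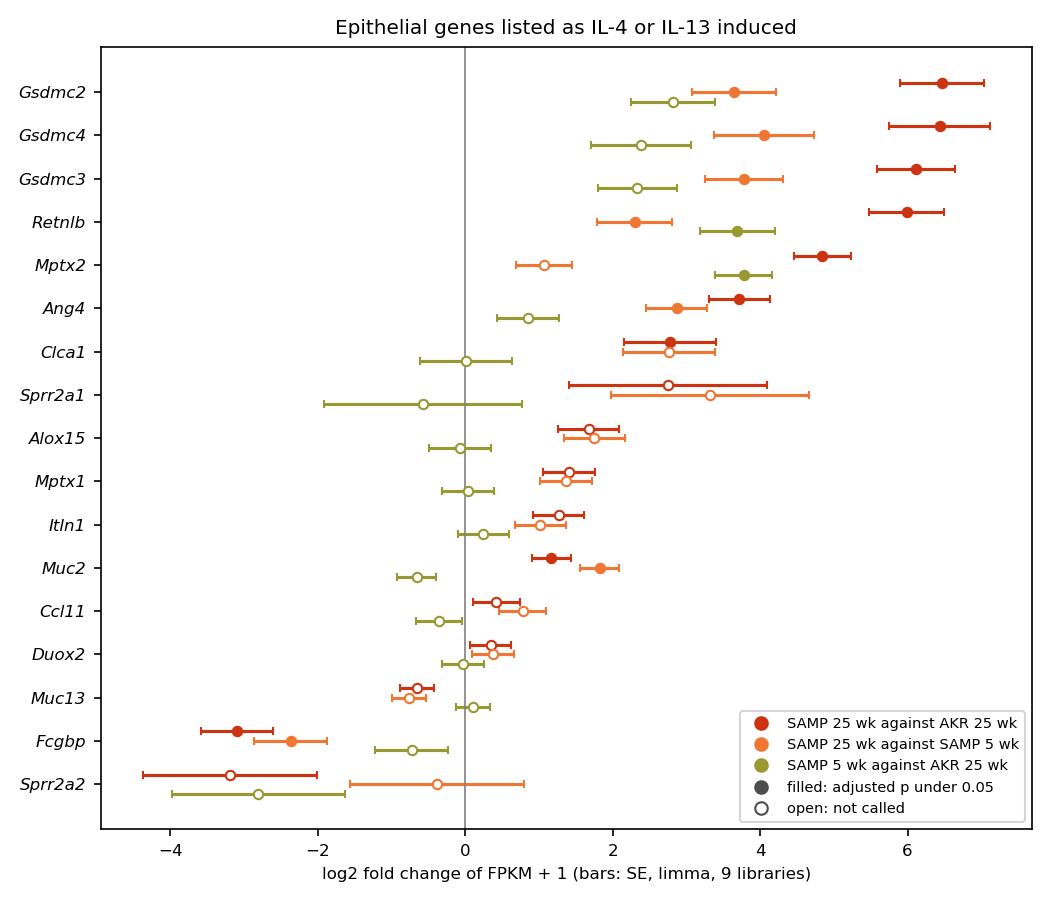
Log2 fold change of FPKM + 1 with its SE for the 17 tested genes listed as induced by IL-4 or IL-13, in the 3 comparisons, ordered by the value against AKR 25 wk and filled where limma's adjusted p was under 0.05. Gsdmc2 (6.47), Gsdmc4 (6.43) and Gsdmc3 (6.11) are at the top, Retnlb comes next at 5.99, and the filled points left of 0 belong to Fcgbp (-3.10 and -2.37).

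Kit encodes the receptor of stem cell factor and lies at chr5:75574987-75656722 (GRCm38). It was at 18.6, 8.39 and 18.3 in AKR, 18.4, 15.3 and 12.8 in SAMP 5 wk, and 48.8, 64.4 and 47.2 in SAMP 25 wk. The uninflamed groups overlapped, and all inflamed libraries lay far above them. It rose by 1.82 ± 0.29 (SE) on the log2 scale against AKR, with an adjusted p of 0.0046 in limma, a call that held under all 20 alternatives. Against SAMP 5 wk it rose by 1.72 ± 0.29 with an adjusted p of 0.011 in limma. That call ended without SAMP 5 wk replicate 2 (adjusted p 0.052), SAMP 5 wk replicate 3 (0.061) or SAMP 25 wk replicate 2 (0.059). Kitl, the gene of its ligand, was at 10.4, 11.3 and 7.75 in AKR, 10.6, 7.47 and 10.1 in SAMP 5 wk, and 15.7, 6.58 and 11.4 in SAMP 25 wk, with overlap throughout.

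The mast cell protease genes were near 0 in most libraries. Mcpt1, the chymase of mucosal mast cells, was at 0.23, 4.28 and 0 in AKR, 1.47, 0 and 0 in SAMP 5 wk, and 0.71, 0 and 0 in SAMP 25 wk. Its highest value, about 36.3 reads, came from the enterocyte-rich AKR library. Mcpt2, a second mucosal protease gene, was at 0.12, 0.86 and 0 in AKR, listed at 0 in all SAMP 5 wk libraries, and at 0.51, 2.49 and 0.53 in SAMP 25 wk. The SAMP 25 wk libraries were thus above SAMP 5 wk but overlapped with AKR, and the 2.49 of replicate 2 rests on about 18.7 reads. Cpa3, the carboxypeptidase of mast cell granules, was at 0.32, 0 and 0.43 in AKR, 0.71, 0.09 and 0.14 in SAMP 5 wk, and 0.08, 0.10 and 0.17 in SAMP 25 wk. It stood for at most about 6.9 reads in a library, and its mean was lower in SAMP 25 wk than in both other groups, with overlap.

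Outside the named proteases and Kit, 8 measured mast cell genes had sums between 1.66 and 3.38 in AKR, 3.38 and 6.65 in SAMP 5 wk, and 2.77 and 4.17 in SAMP 25 wk, which overlapped with both other groups. Fcer1a, the IgE receptor chain, Mcpt4 and Cma1 were listed at 0 in all SAMP 25 wk libraries. The tryptase gene Tpsb2 was the exception, at 0.11, 1.30 and 0.35 in SAMP 25 wk and listed at 0 in the other 6. The mean of Kit in SAMP 25 wk was 3.54 times that in AKR.

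Genes of the other cells that carry Kit were set beside it. Among genes of interstitial cells of Cajal, Kit and the chloride channel gene Ano1 were higher in all SAMP 25 wk libraries than in the other 6. Ano1 was at 1.31, 0.52 and 1.11 in AKR, 2.76, 1.17 and 1.14 in SAMP 5 wk, and 7.07, 3.04 and 4.08 in SAMP 25 wk. It rose by 1.49 ± 0.33 (SE) against AKR with an adjusted p of 0.032 in limma, lost under 7 of 19 alternatives, among them leaving out any 1 AKR library. Etv1, a transcription factor gene of these cells, was at 2.81, 2.27 and 4.02 in SAMP 25 wk, overlapping with the 3.93, 3.72 and 3.15 of SAMP 5 wk, and Thbs4 was listed at 0 in SAMP 25 wk. The smooth muscle sum given above was also higher in SAMP 25 wk, at 113.8 to 134.9 against at most 104.3 elsewhere. Its part in the Kit and Ano1 levels was not tested.

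Of 7 genes of the Kit-carrying secretory cell of the crypt base, Kit itself included, 4 rose between AKR and SAMP 25 wk in limma, namely Kit, Reg4, Spink4 and Spdef, and 1, Tff3, fell. Without the libraries that stood apart 3 of these 5 calls remained, and Spdef and Tff3 were lost. Reg4, its lectin gene, was at 271.4, 132.4 and 294.8 in AKR, 532.3, 144.2 and 63.4 in SAMP 5 wk, and 5911, 7720 and 5491 in SAMP 25 wk. It rose by 4.84 ± 0.61 (SE) with an adjusted p of 0.00084 in limma. Spdef, a transcription factor gene of secretory cells, was at 14.2, 12.2 and 20.7 in AKR, 22.98, 9.01 and 11.4 in SAMP 5 wk, and 55.9, 55.6 and 52.5 in SAMP 25 wk, and rose by 1.77 ± 0.31 with an adjusted p of 0.0079 in limma. Tff3, the trefoil factor of goblet cells, fell by 1.88 ± 0.42 with an adjusted p of 0.035 in limma, lost under 10 of 20 alternatives. Agr2 and Atoh1 were not called against AKR, with log2 fold changes of -0.05 ± 0.36 and 0.74 ± 0.25. All of the 7 but Kit and Reg4 are also among the goblet cell genes above. This secretory cell is described from mouse colon, and the libraries came from ileum. Paneth cell genes, 9 in all, summed to between 40067 and 92564 in AKR and between 56929.5 and 72956 in SAMP 5 wk. In SAMP 25 wk they summed to between 95982 and 152242. Of the 9, 4 were higher in all SAMP 25 wk libraries than in all uninflamed libraries, and 1 was lower. How much of the Kit level Paneth cells or any of the other cell types gave was not tested.

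**Figure D5:**
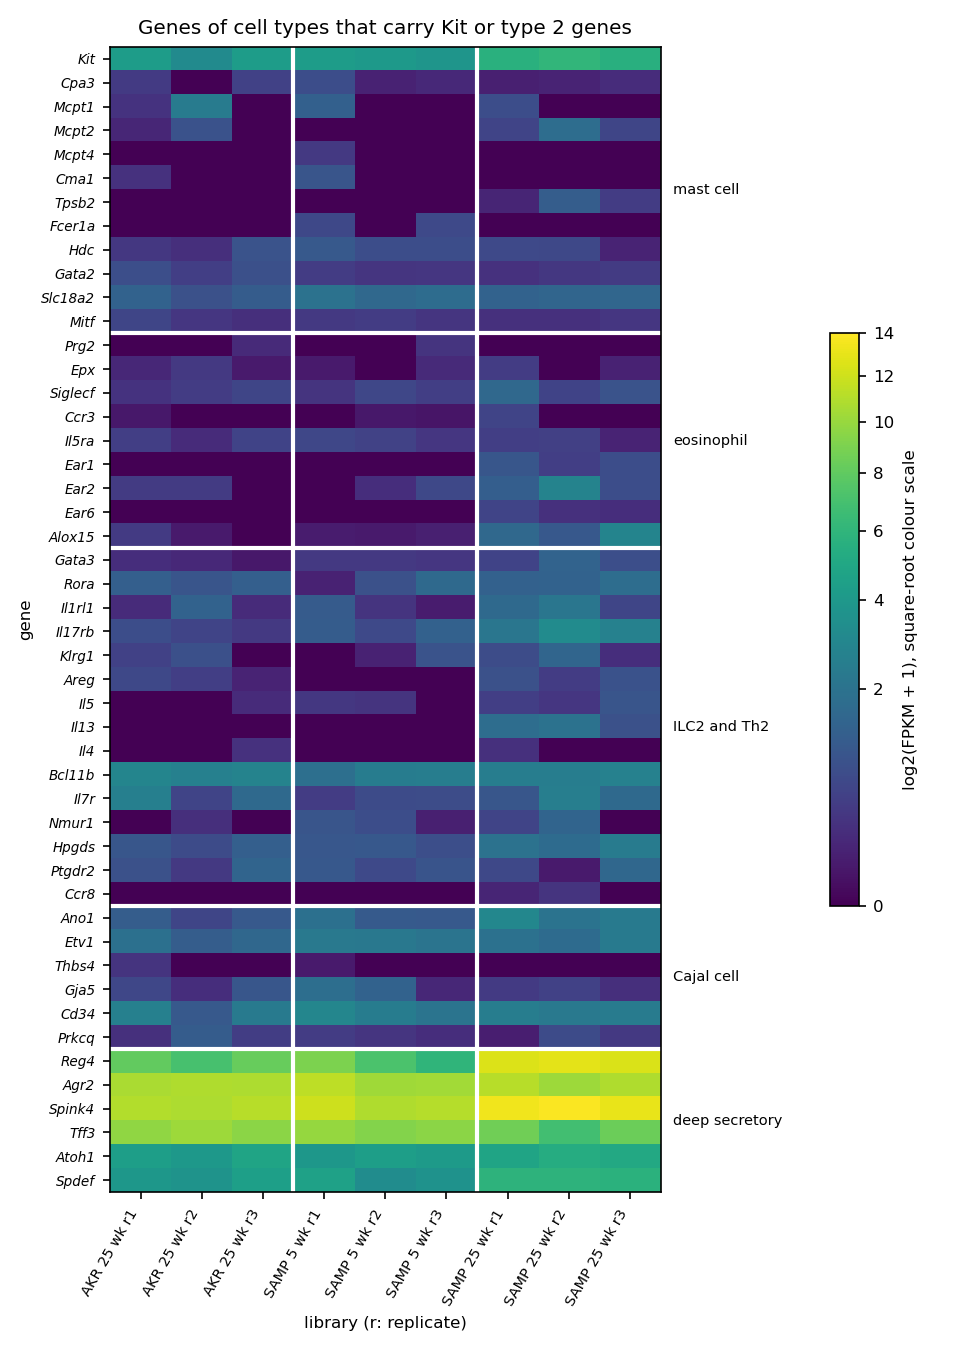
Log2(FPKM + 1) in colour, on a square-root colour scale, of genes of 5 cell type lists (rows) in the 9 libraries (columns), each gene shown once. Kit is brighter in the 3 SAMP 25 wk columns, the other mast cell rows stay dark in most libraries, and Reg4 and Spink4 at the bottom brighten with Kit.

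Likeness to the called genes was described by Pearson's r of log2(FPKM + 1) over the 9 libraries, with the closest named genes of the 11775 given. The closest to Retnlb were Gsdmc2 (0.97), Rep15 (0.97), Prom1 (0.97), Kcnk1 (0.96) and Fhl2 (0.96). Those of Il33 were Cish (0.98), Igf1 (0.97), Setbp1 (0.95) and Bpnt2 (0.95). Cish encodes an inhibitor of cytokine signalling that STAT proteins induce, and its mean was 2.55 in AKR, 3.74 in SAMP 5 wk and 11.2 in SAMP 25 wk. Those of Kit were Defb1 (0.99), Creb3l4 (0.99), Cd24a (0.99), Bmx (0.98) and A4gnt (0.98). Defb1, a beta-defensin gene, had a mean of 1.75 in AKR, 1.96 in SAMP 5 wk and 36.1 in SAMP 25 wk. The points share the 3 groups, so any genes that differ between groups give a high r, and these values carry no test.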

How the data were processed

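The libraries were grouped by the strain and age in the labels, 3 per group, and replicate numbers follow the sample order and pair nothing. The labels also mention cultured crypts, and how these relate to the captured tissue is not stated. Per the file headers, the values that the authors deposited are FPKM, 18220 rows keyed by NCBI gene number. Trimmomatic, STAR, HTSeq and DESeq2 with GRCm38 are named in the submitters' processing notes, and versions, strandedness and the handling of shared reads are not given in the sources used here. Count models do not suit FPKM and were not used. Names for 18155 rows came from RefSeq by gene number.

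Rows with a mean FPKM of at least 1, 11775 in all, were tested as log2(FPKM + 1) with limma 3.58.1 in R 4.3.3. All 9 libraries entered 1 fit of 3 group means with a variance trend and 6 residual degrees of freedom, and p-values were adjusted by Benjamini-Hochberg over all tested rows at 0.05. A pseudocount of 1 understates fold changes of low genes, and intervals of 95% come from the same fit. The fit was tested on simulated data. Reads per gene were inferred from the spacing of low FPKM values in 13812 single-transcript genes, with 50 bases taken off each length. Only 78.2% to 81.9% of those values lay within 0.2 of a whole read, against 40% if evenly spread, so reads are estimates.

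The 10 genes and the gene lists were chosen with earlier results of these data known. Named were the 10 genes, the called genes of each list with up to 4 more of large change, and the genes closest to each called one, of at most 5. A few genes that this rule takes are not reported here. Il1b, Il18, Il1rap, Il4, Il5, Il25, Tslp, Kitl, Etv1, Thbs4, Gata3, Epx, Prg2, Siglecf, Ccr3, Il5ra, Fcer1a, Mcpt4, Cma1, Tpsb2, Dcn, Pecam1, Vwf, Cdh5, Kdr, Cish, Ptprc, Itgam, Zg16, Xist and Eif2s3y were singled out with their values seen or for their role. Alternatives were other pseudocounts (0.1, 5), filters (none, mean of 5), scalings (TPM, quantiles, equal medians), fits (only the groups compared, library weights, no variance trend) and each library left out. Figures were made with Python 3.11.15 and matplotlib 3.10.9.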

Additional observations from a re-analysis of the deposited data

How the results depend on the processing

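A total of 20 alternatives was run, 19 planned and 1 chosen after seeing the data, which left out AKR 25 wk replicate 2 with SAMP 25 wk replicate 3. No paired analysis was possible because replicate numbers only follow the order of the samples. The number of the 10 genes called higher against AKR 25 wk stayed at 2 or 3, and 0 were called lower in any comparison. Between SAMP 25 wk and SAMP 5 wk 2 were called higher, but 1 with a pseudocount of 0.1, no filter, a minimum mean of 5, only the groups compared, no variance trend or both libraries left out, 4 with library weights, and 0 to 2 with single libraries left out. The lowest count of 0 was reached without SAMP 5 wk replicate 2, SAMP 5 wk replicate 3 or SAMP 25 wk replicate 2. Between SAMP 5 wk and AKR 25 wk the count was 1, and 0 with both libraries left out. The cause was not tested.

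Directions turned only for differences that were not called. For SAMP 5 wk against AKR 25 wk, library weights gave log2 fold changes of -0.048 for Il33, -0.19 for Kit, -0.11 for Il4ra and 0.0054 for Il1rl1. With both libraries left out Il13ra1 against AKR 25 wk was at 0.62, and for SAMP 5 wk against AKR 25 wk the values were -0.25 for Kit, -0.03 for Il4ra and 0.30 for Il1rl1, and Il4ra was at -0.011 with a pseudocount of 0.1 and -0.062 as TPM. With single libraries left out the values ranged from -0.25 to 0.28 for Kit, from -0.23 to 0.15 for Il4ra and from -0.41 to 0.13 for Il1rl1. Leaving out single libraries also moved Il13ra1 against AKR 25 wk between -0.12 and 0.54 and Stat6 against SAMP 5 wk between -0.014 and 0.15.

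Equal medians moved the all-row median (log2 scale) from -0.15 to -0.01 against AKR 25 wk, with 296 rows called higher and 148 lower, against 187 and 159 as deposited. TPM moved it to -0.26, with 167 higher and 194 lower. Retnlb and Kit were called against AKR 25 wk under each. Cpa3 rested on at most about 6.9 estimated reads per library. Without the filter its adjusted p in limma was 0.77 against AKR 25 wk and 0.68 against SAMP 5 wk. Whether a difference between groups could be detected at this depth was not tested.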
